A study of Rattus norvegicus with 4 samples.

Results

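The nuclei described here are inhibitory neurons of the rat ventral tegmental area (VTA) that carried RNA of the transcription factor Meis2 and none of Gata3, Lum, Isl1 or Slc17a6. The VTA is a midbrain region best known for its dopamine neurons, and it also holds neurons that release GABA, the main inhibitory transmitter. Single-nucleus RNA sequencing was run on 4 libraries, here female 1, female 2, male 1 and male 2, with 3 adult Sprague-Dawley rats pooled in each. The rats were experimentally naive, aged 90 to 120 days and weighed 200 to 250 g. Nuclei were taken from frozen dissected tissue, stained with the DNA dye 7-AAD, sorted, and made into 10x Genomics 3' libraries, in which each captured RNA molecule is counted once through a unique molecular identifier (UMI). Pooling means that the library, not the animal, is the replicate. The males and females differ in no labelled treatment, so the comparisons below are between kinds of nuclei within a library and, secondarily, between the sexes.

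Members were chosen from the raw UMI counts. A nucleus was a member if it had at least 2000 UMIs in all, at least 1 UMI each of Meis2, Gad1 and Slc32a1, and 0 UMIs of Gata3, Slc17a6, Lum and Isl1. This gave 220 of 21606 nuclei, of which female 1 gave 44, female 2 gave 77, male 1 gave 44 and male 2 gave 55. A first comparison population, the Gata3 GABA nuclei, had at least 1 UMI each of Gata3, Gad1 and Slc32a1 and 0 of Slc17a6, and comprised 250 nuclei. A second, the double-negative GABA nuclei, had Gad1 and Slc32a1 but 0 UMIs of Slc17a6, Meis2 and Gata3, and comprised 561 nuclei. Together with 133 nuclei that fell into none of the 3 populations they made up 1164 GABA nuclei. By the rule, those 133 nuclei all carried Meis2 and no Gata3, and were left out for RNA of Lum or Isl1. The 7 gating genes chose the nuclei and were left out of every test.

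Meis2 is a homeodomain protein of the TALE class that binds DNA together with PBX partners and is used in embryonic patterning and neuronal differentiation. Gata3, with Gata2 and Tal1, is a transcription factor of midbrain GABA neuron development, and a Gata-dependent program is the textbook route to inhibitory identity in the midbrain. Gad1 and Gad2 encode the enzymes that make GABA, and Slc32a1 encodes the transporter that loads it into synaptic vesicles. Slc17a6 encodes a vesicular glutamate transporter, and its absence from the gate keeps out nuclei with glutamatergic RNA.

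The libraries held 19714338 to 25824289 UMIs. Median UMIs per member were 6830.5, 6852, 7510.5 and 4818; every set of 4 values is in the order female 1, female 2, male 1, male 2. The Gata3 nuclei were deeper, with medians of 8744, 8921, 10014 and 7532.5, and so were the double-negative nuclei, with 7684, 7654, 8177 and 6139. No member's barcode occurred in another library. Levels are in CPM, a gene's UMIs summed over a population within a library and scaled so that every such sum has the same total. The 3 populations summed to 1599823, 2418963 and 4603844 UMIs. In such sums a smaller share of nuclei that carry a gene and less of its RNA per nucleus cannot be told apart, so shares of nuclei are given beside the levels of the main genes. Such a share is the expected percentage of nuclei with at least 1 UMI once every nucleus is reduced at random to 2000 UMIs, and its background is the same share in oligodendrocyte nuclei, chosen by UMIs of Mog and Mobp and none of Snap25, whose median depths before reduction were 2840 to 3161.5 UMIs.

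The members had neuronal RNA beyond the gate. Gad2, a GABA gene outside the gate, was at 144 to 359 CPM in members and 3.97 to 7.00 CPM in the oligodendrocyte nuclei. It was lower in members than in both other GABA populations, as given below. The listed neuronal genes summed to 6474 to 7797 CPM in members, against 298 to 333 CPM in the oligodendrocyte nuclei. Snap25, at 1647 to 2019 CPM in members, is part of this sum. The oligodendrocyte nuclei had 0 UMIs of it by the rule that chose them, so its part of the contrast is no evidence. Within the list, Elavl2 and Elavl4 were lower in members than in both other GABA populations, and Snap25 was higher than in both. Rbfox1 and Syt1 were higher than in the double-negative nuclei alone. All 4 serotonin markers were at 0 UMIs, as were Slc17a7 of glutamate neurons, Chat and Slc18a3 of cholinergic neurons, and Pitx3 of dopamine neurons. Other genes of the glutamate, cholinergic and dopamine lists were present. Slc17a8 of the glutamate list had 27 UMIs and Slc5a7 of the cholinergic list had 34. The 8 dopamine markers together reached 40.0 to 104 CPM, with Ret the highest at 24.6 to 57.6 CPM. Slc5a7 and Ret passed the test as higher than in the Gata3 nuclei. Neither passed against the double-negative nuclei, and Slc17a8 passed in neither comparison. Oligodendrocyte RNA was present in every library, at 450, 492, 1229 and 1284 CPM for the 9 listed markers, and was higher in both male libraries than in both female libraries. It ranged similarly in the Gata3 nuclei (470 to 1331 CPM) and the double-negative nuclei (353 to 1243 CPM), and 0 of its 9 markers passed the test in either comparison of populations. The 8 listed astrocyte markers summed to 52.2, 113, 35.7 and 311 CPM in members, highest in male 2, and to 28.4 to 116 CPM in the Gata3 nuclei and 39.2 to 92.9 CPM in the double-negative nuclei. Agt, among them, was at 6.52, 51.3, 5.49 and 117 CPM in members and passed the test in both comparisons (1.62 ± 0.54, adjusted p = 0.0483, and 1.84 ± 0.50, adjusted p = 0.0148). Both Agt calls were lost without female 2 (0.95, adjusted p = 0.429, and 1.41, adjusted p = 0.190), without male 2 (0.92, adjusted p = 0.479, and 1.22, adjusted p = 0.315) and without the nuclei scored as doublets (0.96, adjusted p = 0.311, and 0.94, adjusted p = 0.313). They were also lost without library as a block (adjusted p = 0.153 and 0.0823) and with DESeq2 (adjusted p = 0.480 and 0.484). The part of astrocyte RNA in the other results was not tested. Doublet scoring marked 17 of the 220 members, 14 of the 250 Gata3 nuclei and 24 of the 561 double-negative nuclei.

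The gating genes are given only as a description. Meis2 was at 1827, 1865, 1855 and 1327 CPM in members and at 589, 526, 341 and 701 CPM in the Gata3 nuclei, of which 108 of 250 also carried Meis2. Among the 220 members, 10 had 1 UMI of Meis2, 7 of them in male 2, and 124 had 10 or more. Gad1 was at 385 to 464 CPM in members and 441 to 586 CPM in the Gata3 nuclei, and Slc32a1 at 260 to 376 and 245 to 355 CPM, so the levels of both genes overlapped between the populations. Near the limits of the rule, 53 nuclei met every other condition but had 1 UMI of Gata3, 23 had 1 UMI of Lum, 7 had 1 of Slc17a6 and 1 had 1 of Isl1. On the inside, 59 members had just 1 UMI of Gad1 and 82 had just 1 of Slc32a1. Of the 250 Gata3 nuclei, 129 had just 1 UMI of Gata3, among them 44 of the 62 in male 2.

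Against the Gata3 nuclei, members had higher levels of 741 genes and lower levels of 479 among 9729 tested (edgeR quasi-likelihood test with library as a block, Benjamini-Hochberg adjusted p under 0.05), so 12.5% of all genes were called, 7.62% higher and 4.92% lower. Against the double-negative nuclei, 608 genes were higher and 359 lower, which is 9.94% of all genes, 6.25% higher and 3.69% lower. The median log2 difference over all genes tested was -0.01 in each comparison. Both comparisons share the same member sums, so their results are not independent of each other, and they are set side by side below rather than compared. With every nucleus thinned at random to 2000 UMIs before gating, 28, 19, 26 and 30 members and 15, 3, 7 and 10 Gata3 nuclei were left and 2055 genes could be tested. Of the genes named here that could, 22 kept their call against the Gata3 nuclei, 25 lost it and 1 changed sign, and against the double-negative nuclei 32 kept it, 13 lost it and 4 changed sign; main genes that did not keep it are pointed out below. The 4 libraries of members and of the other population did not overlap for 1362 genes (14.0%) in the first comparison and 1123 (11.5%) in the second.

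**Figure D1:**
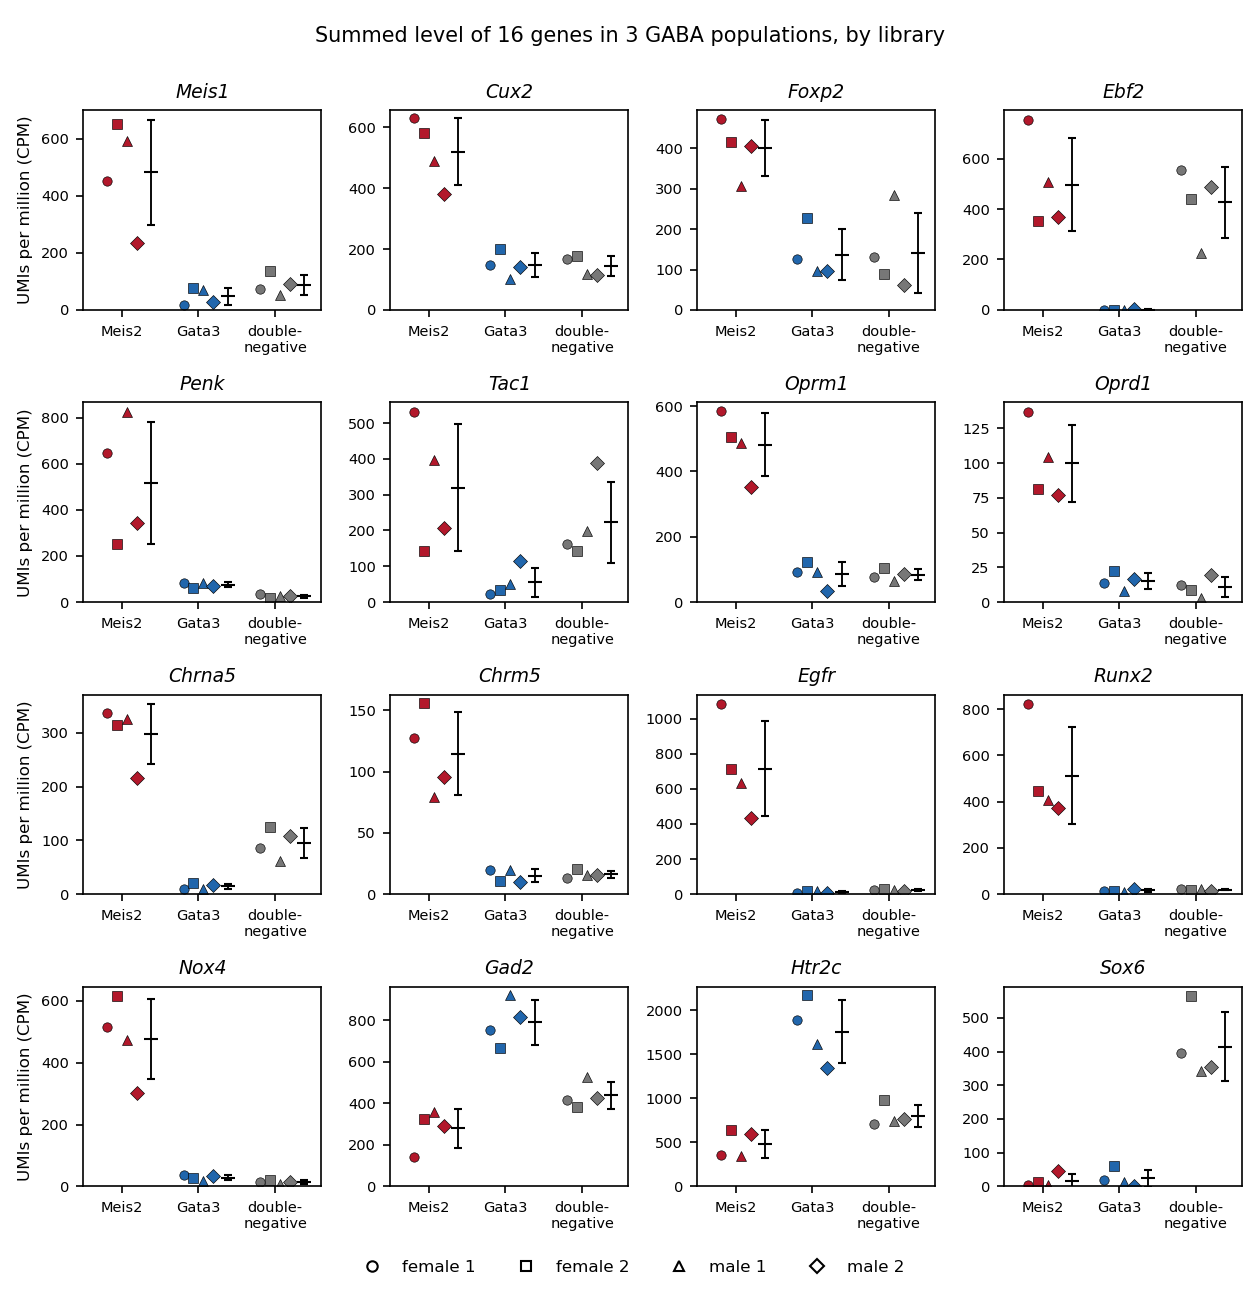
Level of 16 genes in CPM (linear axes from 0) in Meis2, Gata3 and double-negative GABA nuclei; each symbol is the sum over 1 library and its shape gives the library. Member libraries lie above both other populations for Meis1, Cux2, Foxp2, Penk, Oprm1, Oprd1, Chrna5, Chrm5, Egfr, Runx2 and Nox4, and below both for Gad2 and Htr2c.

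Among transcription factors, the members differed from the Gata3 nuclei in regional identity genes in both directions. Of 101 listed regional transcription factors, 97 were in the annotation and 41 had enough UMIs to be tested. Of these, 11 were higher and 13 lower than in the Gata3 nuclei (all genes: 7.62% and 4.92%). Another count, against the double-negative nuclei, was 5 higher and 14 lower (all genes: 6.25% and 3.69%). The median log2 difference of the 41 was -0.40 and -0.44. Sox14, Tal1 and Gata2, which belong to the Gata-dependent GABA program, all fell against the Gata3 nuclei. Ebf2, Pax7, Pax3, En2, Cux2 and Foxp2 rose.

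Ebf2, a helix-loop-helix factor of neuronal differentiation, was at 754, 354, 508 and 369.6 CPM in members and at 1.51, 0, 1.66 and 2.06 CPM in the Gata3 nuclei. Those values came from 750 UMIs in members and 3 UMIs in the Gata3 nuclei, a ratio of 378 with a 95% counting interval of 129 to 1837. The double-negative nuclei, at 554, 441, 226 and 485 CPM, overlapped the members and did not pass the test (log2 difference 0.30 ± 0.16 SE, adjusted p = 0.336).

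Pax7, a paired-box factor of the dorsal midbrain, was at 183, 113, 118 and 95.5 CPM in members and had 1 UMI in all 250 Gata3 nuclei (ratio 299, interval 53.1 to 11884). The double-negative nuclei held 66.2, 104, 45.6 and 64.8 CPM, which overlapped the members; the log2 difference of 0.91 ± 0.19 passed the test (adjusted p = 1.49e-03) and lost the call without female 1. Its relative Pax3 was uneven among members, at 13.0, 41.4, 13.7 and 108 CPM, above the Gata3 nuclei (1 UMI) but below the double-negative nuclei at 123, 122, 109 and 187 CPM. En2, a midbrain and hindbrain patterning factor, was at 23.2 to 42.4 CPM in members and 4.48 to 6.19 CPM in the Gata3 nuclei (log2 difference 2.59 ± 0.40, adjusted p = 3.28e-05).

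Cux2 and Foxp2 were higher in members than in both other populations. Cux2, a homeodomain factor known from upper layers of the cortex, was at 629.6, 581, 488 and 382 CPM in members, 103 to 200.1 CPM in the Gata3 nuclei and 114 to 176 CPM in the double-negative nuclei. No member library overlapped either population, and the log2 differences were 1.92 ± 0.13 (adjusted p = 1.61e-11) and 1.93 ± 0.12 (adjusted p = 6.66e-12). At 2000 UMIs, 59.3% ± 5.21 (SD, n = 4) of members were expected to carry Cux2, against 24.9% of Gata3 nuclei, 23.6% of double-negative nuclei and 0.90% of oligodendrocyte nuclei. Foxp2, a forkhead factor, was at 473, 415, 307 and 407 CPM in members, and its closest value outside them was 284 CPM in the double-negative nuclei of male 1 (log2 differences 1.64 ± 0.29, adjusted p = 1.58e-04, and 1.60 ± 0.27, adjusted p = 1.35e-04).

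The Gata-program factors were near the floor in members. Tal1 was at 6.52, 4.97, 5.49 and 3.08 CPM in members and 42.3, 40.3, 53.2 and 45.4 CPM in the Gata3 nuclei, with the double-negative nuclei between them at 9.78 to 27.0 CPM. All 4 member libraries were below every library of both other populations (log2 differences -3.04 ± 0.42, adjusted p = 5.48e-06, and -1.90 ± 0.46, adjusted p = 5.88e-03). Sox14 was at 3.26, 1.66, 0 and 12.3 CPM in members against 51.5 to 59.8 CPM in the Gata3 nuclei (-3.76 ± 0.44, adjusted p = 4.05e-07). Gata2, a partner of Gata3, was at 2.74 to 18.5 CPM against 26.9 to 51.6 CPM (-1.83 ± 0.41, adjusted p = 2.21e-03). Since Gata3 itself was gated, the comparisons of Tal1, Sox14 and Gata2 with the Gata3 nuclei all stand close to the rule and are no independent evidence. Zfhx3, a homeodomain and zinc-finger factor, fell against both populations by 1.80 and 1.08 on the log2 scale, and with thinned nuclei its first call was lost (-1.05).

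Sox6 and Lef1 were among the factors lower in members than in the double-negative nuclei. Sox6, a factor known from forebrain interneurons and from midbrain dopamine neurons, was at 3.26, 13.2, 2.74 and 46.2 CPM in members and 395, 565, 344 and 353 CPM in the double-negative nuclei. The populations did not overlap (log2 difference -4.75 ± 0.34, adjusted p = 1.11e-10), and Sox6 in the Gata3 nuclei, at 2.06 to 61.2 CPM, did not pass the test against members (-0.65 ± 0.56, adjusted p = 0.565). Ebf1, Zfpm2 and Pax5 also fell, by 2.72, 2.05 and 3.07, and they fell against the Gata3 nuclei too, by 1.51, 1.66 and 3.23. Lef1, a Wnt-pathway factor, had 0 UMIs in all members and 2.64 to 57.5 CPM in the double-negative nuclei, with the highest value in male 1, so it was at least 13.0-fold lower. The Lef1 call was lost with DESeq2. Lef1 and Isl1 RNA of the double-negative nuclei was concentrated in a cluster of 50 nuclei, 42 of them from male 1, and requiring 0 UMIs of Lum and Isl1 in the comparison nuclei too cost 2 of the calls named here.

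Some genes of the MEIS and PBX family were higher in members, and the others did not pass the test. Of 13 listed genes, 9 were tested. Compared with the Gata3 nuclei, 4 were higher and 0 lower (all genes: 7.62% and 4.92%). Compared with the double-negative nuclei, 5 were higher and 0 lower (all genes: 6.25% and 3.69%). Meis1, Mkx and Pbx3 were higher in both comparisons, and the medians were 0.70 and 0.62. Meis1, the closest relative of Meis2, was at 450.2, 650.4, 593 and 234 CPM in members, 16.6, 77.6, 69.8 and 28.9 CPM in the Gata3 nuclei and 71.9, 137, 53.3 and 89.3 CPM in the double-negative nuclei. Male 2 was the lowest member library and still above every library of the other populations (3.42 ± 0.25, adjusted p = 9.31e-11, and 2.55 ± 0.21, adjusted p = 1.12e-09). At 2000 UMIs, 43.7% ± 11.3 of members were expected to carry Meis1, 6.62% of Gata3 nuclei and 10.1% of double-negative nuclei. Oligodendrocyte nuclei carried it in 38.5%, so oligodendrocyte nuclei are no background for this gene; the part of oligodendrocyte RNA in the Meis1 level was not tested, and in the sums with glial nuclei removed the call was kept. Pbx3, a DNA-binding partner of MEIS proteins, rose by 1.79 against the Gata3 nuclei and by 0.62 against the double-negative nuclei, and with thinned nuclei the second difference was 0.32 and did not pass. The Mkx call against the Gata3 nuclei was lost without female 1, and the call of Pknox1, another family member, against the double-negative nuclei was lost under 10 of the alternatives, among them leaving out female 2, male 1 or male 2.

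The pattern most like that of Meis2 itself was that of Dmd, the dystrophin gene, with Pearson r = 0.985 of log2 (CPM + 1) over the 12 sums and 7152 genes compared. Dmd was at 1888 to 2026 CPM in members, 1773 to 2017 CPM in the Gata3 nuclei and 1212 to 1299 CPM in the double-negative nuclei. The next genes were Nav2 (0.933), Sh3rf1 (0.908), Robo2 (0.903), Rspo3 (0.891), Slk (0.891), Ntm (0.884) and Fam19a2 (0.869). The double-negative sums hold 0 UMIs of Meis2 by the rule, the 12 points share libraries and depth differences between populations, and these values are a description without a test.

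Gad2 was lower in members among the genes of GABA synthesis and transport. Of 14 listed genes of GABA synthesis, transport and synaptic anchoring, 13 were tested. In each comparison 2 were higher and 1, Gad2, was lower, with medians of 0.23 and 0.10. Higher and lower shares of all genes were 7.62% and 4.92% in the first comparison and 6.25% and 3.69% in the second. Gad2, which makes the GABA pool used at synaptic terminals, was at 144, 324, 359 and 289.5 CPM in members, 755, 667, 924 and 819 CPM in the Gata3 nuclei, and 418, 381, 529 and 427 CPM in the double-negative nuclei. Every member library was below every library of both populations (-1.39 ± 0.14, adjusted p = 2.12e-08, and -0.56 ± 0.14, adjusted p = 5.71e-03). At 2000 UMIs, Gad2 was expected in 34.5% ± 9.58 of members, 75.1% ± 2.92 of Gata3 nuclei, 51.7% ± 4.56 of double-negative nuclei and 1.28% of oligodendrocyte nuclei. The second call was lost without library as a block, and with nuclei thinned to 2000 UMIs before gating, neither passed (-0.74 and -0.27). The gate required Gad1 and not Gad2, and the share of Gad1 at 2000 UMIs was 60.8%, 63.5% and 62.9% in the same order of populations.

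Of 7 glycine genes 5 were tested. The receptor subunits Glra1 and Glra3 fell against the Gata3 nuclei by 1.67 and 1.04, where 4.92% of all genes were lower. With thinned nuclei the Glra3 difference was -0.34 and did not pass.

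GABA-A receptor subunits changed in composition. Of 19 subunits 11 were tested. Gabrd, Gabra2 and Gabra3 were higher and 5 lower than in the Gata3 nuclei (all genes: 7.62% and 4.92%). Among the 5 were Gabra4, Gabrb2, Gabrg3 and Gabrb1. Gabrd, Gabra2 and Gabrg1 were higher and 3 lower than in the double-negative nuclei (all genes: 6.25% and 3.69%). Among the 3 were Gabra5 and Gabrg3. Medians were -0.55 and -0.20. Gabrg3, a gamma subunit, was at 555, 535, 568 and 609.8 CPM in members, 1088, 1181, 1098 and 1044 CPM in the Gata3 nuclei and 965, 837, 929.7 and 1050.4 CPM in the double-negative nuclei. Every member library was below every library of both populations (-0.87 ± 0.09, adjusted p = 1.33e-07, and -0.67 ± 0.09, adjusted p = 9.69e-06). Gabrd, a subunit of extrasynaptic receptors, was at 65.2, 24.8, 32.9 and 33.9 CPM in members against 2 UMIs in all Gata3 nuclei (ratio 43.8, interval 11.6 to 371) and 0 to 4.21 CPM in the double-negative nuclei (4.63 ± 0.58, adjusted p = 2.00e-06). The Gabra2 and Gabra3 calls against the Gata3 nuclei were lost without female 2, and Gabra3 also without male 2. The Gabrg1 call was lost without female 2 and without male 2.

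Genes for opioid and other neuropeptides were among those higher in members. Of 43 listed peptide and granin genes, 40 were in the annotation and 13 were tested: 7 were higher and 1 lower than in the Gata3 nuclei, and 5 higher and 1 lower than in the double-negative nuclei, where 7.62% and 6.25% of all genes were higher. The medians of the 13 were 1.30 and 0.40. Filtering on UMIs kept the genes that at least 1 population held, so these counts describe the tested genes and not the whole list.

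Penk, the precursor of the enkephalin opioid peptides, was at 646, 253, 826 and 342 CPM in members, 83, 61.2, 83.1 and 70.1 CPM in the Gata3 nuclei and 34.3, 18.5, 24.5 and 25.7 CPM in the double-negative nuclei. Each member library was at least 253 CPM and no other sum exceeded 83.1 CPM. The log2 differences were 2.83 ± 0.17 (adjusted p = 3.68e-12) and 4.38 ± 0.18 (adjusted p = 3.06e-15). With nuclei thinned before gating they were 1.10, which did not pass, and 1.65, which did. At 2000 UMIs, 23.2% ± 7.74 of members, 8.93% of Gata3 nuclei, 3.71% of double-negative nuclei and 0.42% of oligodendrocyte nuclei were expected to carry Penk.

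Tac1, the substance P precursor, was at 532, 142, 398 and 206 CPM in members and 22.6, 32.9, 51.5 and 113 CPM in the Gata3 nuclei. The libraries did not overlap (2.70 ± 0.34, adjusted p = 1.18e-06; 0.92 with thinned nuclei, not passing), whereas the double-negative nuclei, at 143 to 389 CPM, overlapped the members and did not pass (0.62 ± 0.26, adjusted p = 0.155). Nts, which encodes neurotensin, was at 31.4 to 74.1 CPM in members and at most 18.2 CPM in the other populations (2.70 ± 0.37, adjusted p = 5.45e-06, and 2.39 ± 0.32, adjusted p = 4.04e-06). Pdyn, the dynorphin precursor, was at 39.1, 18.2, 32.9 and 6.16 CPM in members, with 1 UMI in the Gata3 nuclei (ratio 55.9, interval 9.44 to 2269) and 2.45 to 3.67 CPM in the double-negative nuclei (3.02 ± 0.51, adjusted p = 1.35e-04). Pnoc, the nociceptin precursor, was the member of the list that fell, by 0.72 and 0.62. Against the Gata3 nuclei its call was lost without female 2, and with thinned nuclei the difference was 0.04. Against the double-negative nuclei the Pnoc call was lost under 5 alternatives, among them leaving out female 1, female 2 or male 2. Sst, Scg2 and Nppa also rose against the Gata3 nuclei by 0.93, 1.30 and 1.52, and the Nppa call was lost without female 1 and without male 1. The Scg2 call against the double-negative nuclei was lost under 7 alternatives, among them leaving out female 1, female 2 or male 1. With thinned nuclei that Scg2 difference changed sign.

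**Figure D2:**
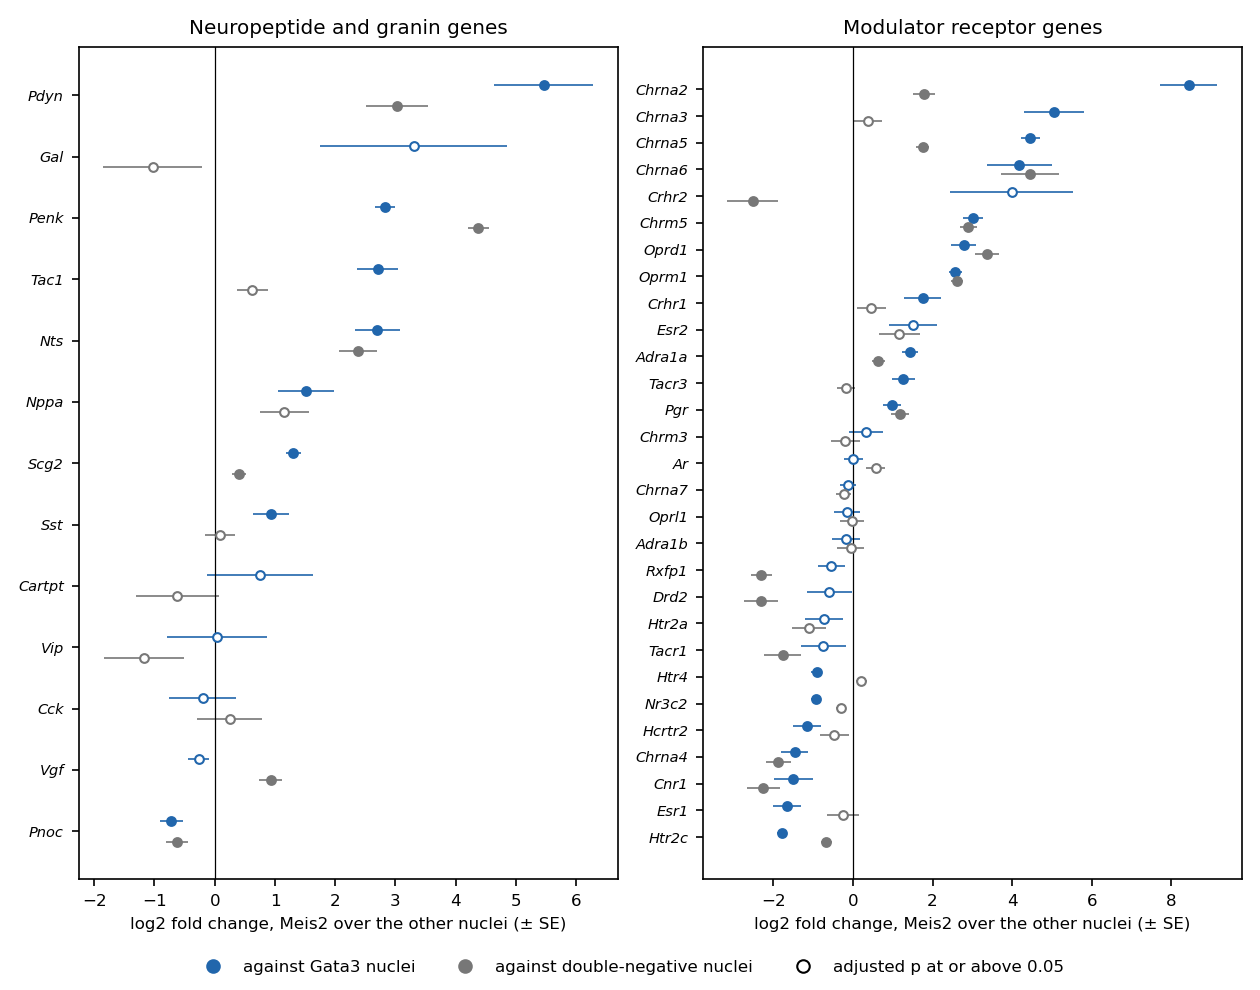
Log2 difference (Meis2 GABA nuclei over the other nuclei, points, with ± SE as bars) of all tested peptide and granin genes and modulator receptor genes, against the Gata3 nuclei (blue) and the double-negative nuclei (grey); open points did not reach an adjusted p under 0.05. Pdyn, Penk, Nts and Scg2 lie to the right in both comparisons, as do Oprm1, Oprd1, Chrm5, Chrna5 and Chrna6. The Scg2 call against the double-negative nuclei was lost without female 1, female 2 or male 1. The fitted value of a gene with 0 UMIs in the other nuclei (Chrna2) depends on the prior count and is no estimate of its fold.

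Receptors for opioids and acetylcholine were among the modulator receptors that rose. Of 74 listed receptor genes, 73 were in the annotation and 29 were tested. Compared with the Gata3 nuclei, 11 were higher and 7 lower (all genes: 7.62% and 4.92%). Compared with the double-negative nuclei, 8 were higher and 7 lower (all genes: 6.25% and 3.69%). The medians of the 29 were 0.01 and -0.06, beside -0.01 for all genes, and the first median is the same with genes at 0 UMIs set to their bound.

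Oprm1, the mu opioid receptor and the target of morphine, was at 584, 506, 488 and 351 CPM in members, 92.1, 122, 91.4 and 35.1 CPM in the Gata3 nuclei and 76.0, 106, 65.9 and 86.8 CPM in the double-negative nuclei. The lowest member library was above all other sums (2.57 ± 0.17, adjusted p = 1.69e-11, and 2.61 ± 0.16, adjusted p = 5.02e-12). At 2000 UMIs it was expected in 53.4% ± 5.05 of members, 13.0% ± 4.83 of Gata3 nuclei, 13.2% ± 2.87 of double-negative nuclei and 0.37% of oligodendrocyte nuclei. Oprm1 overlaps Ipcef1, which lies on the opposite strand in the RefSeq annotation of GRCr8 and was also higher in members (4.07, adjusted p = 1.72e-09, and 3.30, adjusted p = 1.58e-09). Whether the authors' counting used strand is unknown here, so reads of these genes may not be told apart; Ipcef1 was chosen after its values were seen. Oprd1, the delta opioid receptor, was at 137, 81.1, 104 and 77.0 CPM in members and at most 22.4 CPM elsewhere (2.78 ± 0.32, adjusted p = 3.52e-07, and 3.36 ± 0.31, adjusted p = 8.63e-09).

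Nicotinic receptor subunits changed in both directions. Chrna5, the accessory alpha5 subunit, was at 336, 314, 327 and 216 CPM in members, 10.6, 20.9, 9.97 and 16.5 CPM in the Gata3 nuclei and 85.8, 125, 61.7 and 108 CPM in the double-negative nuclei. The 3 populations were fully ordered with no overlap of libraries (4.45 ± 0.24, adjusted p = 5.97e-13, and 1.75 ± 0.16, adjusted p = 7.92e-09). Chrna2 was at 68.5, 67.9, 49.4 and 33.9 CPM in members and 0 UMIs in all Gata3 nuclei, at least 45.9-fold higher when the latter are set to 3 UMIs over the group. It was 1.78 ± 0.28 higher on the log2 scale than in the double-negative nuclei (adjusted p = 8.10e-05). Chrna6, known for dopamine neurons, was low, at 6.52 to 22.0 CPM in members, with 2 UMIs in the Gata3 nuclei and 3 in the double-negative nuclei (ratios 21.2, interval 5.34 to 183, and 26.9, interval 8.30 to 138). Chrna3 was at 6.16 to 62.0 CPM with 2 UMIs in the Gata3 nuclei. Chrna4, part of the most abundant brain nicotinic receptor, went the other way, at 3.26 to 16.5 CPM in members against 26.8 to 43.8 and 37.0 to 50.1 CPM (-1.46 ± 0.35, adjusted p = 4.21e-03, lost without female 1, and -1.88 ± 0.31, adjusted p = 9.67e-05). Chrm5, a muscarinic receptor of midbrain dopamine neurons, was at 127, 156, 79.6 and 95.5 CPM in members and at most 20.3 CPM elsewhere (3.01 ± 0.25, adjusted p = 1.44e-09, and 2.90 ± 0.22, adjusted p = 3.28e-10).

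Htr2c, a serotonin receptor, was lower in members, at 352, 645, 343 and 598 CPM against 1893, 2177, 1621 and 1349 CPM in the Gata3 nuclei and 703, 986, 745 and 763 CPM in the double-negative nuclei. No member library reached the lowest library of either population (-1.78 ± 0.13, adjusted p = 9.31e-11, and -0.66 ± 0.13, adjusted p = 5.51e-04). The first difference was -0.64 with thinned nuclei and did not pass. Cnr1, the cannabinoid receptor, fell by 1.49 and 2.25, the first call being lost without female 1 and without male 1. Drd2, the dopamine D2 receptor, and Rxfp1, the relaxin receptor, each fell by 2.30 against the double-negative nuclei and did not pass against the Gata3 nuclei (-0.60 and -0.55, adjusted p = 0.610 and 0.377).

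Egfr and Runx2, outside these lists, were among the largest increases of both comparisons, and Nox4 was among those against the double-negative nuclei. Egfr, the receptor for epidermal growth factor, was at 1083, 713, 634 and 431 CPM in members, 7.55, 16.4, 19.9 and 8.25 CPM in the Gata3 nuclei and 23.7, 29.1, 21.0 and 19.6 CPM in the double-negative nuclei. The lowest member library, at 431 CPM, was above every other sum, the highest of which was 29.1 CPM (5.85 ± 0.20, adjusted p = 2.29e-16, and 5.00 ± 0.16, adjusted p = 5.63e-17). Runx2, best known as the master factor of bone formation, was at 822, 445, 406 and 373 CPM in members, 11.6 to 22.7 CPM in the Gata3 nuclei and 14.7 to 22.4 CPM in the double-negative nuclei. All member libraries were again far above the others, female 1 the highest (5.11 ± 0.20, adjusted p = 1.55e-15, and 4.73 ± 0.17, adjusted p = 1.05e-16). Nox4, an oxidase that makes hydrogen peroxide, was at 515, 616, 475 and 302 CPM in members, against 16.6 to 36.2 and 7.01 to 19.4 CPM (4.22 ± 0.19, adjusted p = 1.49e-14, and 5.22 ± 0.18, adjusted p = 1.05e-16). With nuclei thinned before gating, the differences of Egfr and Runx2 were 5.55 and 7.30 against the Gata3 nuclei, and those of Egfr, Runx2 and Nox4 were 3.74, 3.83 and 4.44 against the double-negative nuclei.

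Among the other largest increases against the Gata3 nuclei, Sla, Enpp3 and Hs3st6 had 0 UMIs in all Gata3 nuclei and were at least 31.2-fold, 25.2-fold and 19.2-fold higher. Meox2, Ddr2 and Epyc had 2 or 3 UMIs there (ratios 56.4, 54.4 and 44.9). Sox14 and Pax5 were among the largest decreases. Against the double-negative nuclei, Lamp5, a marker of a class of forebrain interneurons, and Cnksr3 rose by 4.5 and 4.61. Calcr, the calcitonin receptor, had 3 UMIs in members and 7.35, 45.8, 176 and 9.78 CPM in the double-negative nuclei (ratio 0.027, interval 0.0055 to 0.0796), and its call was lost without male 1.

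Ion channels that set firing patterns also differed. Of 48 listed calcium-binding proteins and channels, 42 were tested (medians 0.11 and -0.04). Compared with the Gata3 nuclei, 11 were higher and 6 lower (all genes: 7.62% and 4.92%). Compared with the double-negative nuclei, 9 were higher and 5 lower (all genes: 6.25% and 3.69%). Kcnip1, an auxiliary subunit of A-type potassium channels, was at 1002, 1208, 958 and 810.0 CPM in members, 211 to 300.1 CPM in the Gata3 nuclei and 277 to 462 CPM in the double-negative nuclei (2.05 ± 0.12, adjusted p = 2.37e-12, and 1.59 ± 0.11, adjusted p = 8.22e-11). No libraries overlapped, and its relative Kcnip4 rose by 1.45 and 1.38. Kcnc2, a potassium channel of fast-firing neurons, fell by 1.17 and 0.81. Hcn4, a pacemaker channel, was at 18.2 to 43.1 CPM in members against 7.47 to 14.4 CPM in the Gata3 nuclei (1.65 ± 0.35, adjusted p = 1.42e-03). Pvalb, a calcium buffer of fast-firing interneurons, was at 4.97 to 30.8 CPM in members and did not pass against the Gata3 nuclei (-0.33 ± 0.36, adjusted p = 0.677). It rose against the double-negative nuclei (1.58 ± 0.41, adjusted p = 0.0111), a call lost when any of female 1, male 1 or male 2 was left out.

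Cacna2d3, an auxiliary calcium channel subunit, was at 26.1, 111, 244 and 419 CPM in members. The Gata3 nuclei were at 510.2, 726, 753 and 662 CPM and the double-negative nuclei at 703, 742, 939 and 789 CPM. Every member library was lower than both populations (-1.76 ± 0.25, adjusted p = 1.11e-05, and -2.05 ± 0.25, adjusted p = 1.06e-06), and both female libraries were below both male libraries among members.

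Receptors for glutamate split by family. Of 26 listed receptor genes 22 were tested (medians 0.07 and 0.16). Compared with the Gata3 nuclei, 9 were higher and 6 lower (all genes: 7.62% and 4.92%). Compared with the double-negative nuclei, 6 were higher and 5 lower (all genes: 6.25% and 3.69%). AMPA receptor subunits Gria1 and Gria2 rose by 1.35 and 0.87 against the Gata3 nuclei and by 1.14 and 0.59 against the double-negative nuclei, and the NMDA receptor subunit Grin3a rose by 1.42 and 1.74. With thinned nuclei the first differences of Gria1 (0.91), Grin3a (1.01) and Grik1 (-1.47) did not pass. Of the kainate receptor subunits, Grik1 was at 58.7, 101, 93.3 and 61.6 CPM in members, 158 to 312 CPM in the Gata3 nuclei and 361 to 468 CPM in the double-negative nuclei (-1.32 ± 0.19, adjusted p = 7.74e-06, and -2.28 ± 0.17, adjusted p = 2.45e-10). Grik3 fell by 1.35 and 1.59, while Grik5 was higher than in the Gata3 nuclei.

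Axon guidance and adhesion genes also changed in both directions. Of 72 genes, 69 were in the annotation and 62 were tested, with medians of 0.08 and 0.01. Compared with the Gata3 nuclei, 23 were higher and 13 lower (all genes: 7.62% and 4.92%). Compared with the double-negative nuclei, 20 were higher and 13 lower (all genes: 6.25% and 3.69%). Sema3a, Sema3e and the neuropilin receptors Nrp1 and Nrp2 were higher in members in both comparisons. Sema3a was at 94.6, 111, 107 and 46.2 CPM in members against 2.99 to 10.3 and 4.89 to 39.3 CPM (3.65 ± 0.35, adjusted p = 1.73e-08, and 2.35 ± 0.26, adjusted p = 2.70e-07). Nrp2 was at 434, 396, 480.2 and 283 CPM against 43.3 to 69.4 and 199 to 239 CPM (2.75 ± 0.15, adjusted p = 4.75e-13, and 0.93 ± 0.12, adjusted p = 1.74e-06), and the first difference was 1.31 with thinned nuclei and did not pass. Sema3e and Nrp1 rose by 1.34 and 1.60 against the Gata3 nuclei and by 2.26 and 1.81 against the double-negative nuclei. The guidance ligand Slit2 rose by 1.70 against the Gata3 nuclei while its receptor Robo1 fell by 0.87, and neither passed against the double-negative nuclei (0.20 and -0.24, adjusted p = 0.512 and 0.202). Cdh13, an adhesion protein without a cytoplasmic domain, fell in both comparisons by 1.33 and 1.12.

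The members were not uniform. The 1031 nuclei of the 3 populations were clustered without the gating genes and sex genes, which gave 20 clusters; the clusters and the genes below came from the same counts and are described without a test. Of the nuclei clustered, clusters 3, 8 and 17 consisted of members alone and held 73, 43 and 26 nuclei, 142 of the 220 or 64.5%. The 133 GABA nuclei with Meis2 and RNA of Lum or Isl1 were not clustered. Whether they would fall in these clusters was not tested. Another 27 members fell in cluster 1 beside 123 Gata3 and 127 double-negative nuclei, and 51 were spread over other clusters. Those 51 included 13 of the 17 members marked as doublets, 8 in a cluster led by the oligodendrocyte genes Mog and Mobp, and 7 in a cluster led by the astrocyte genes Gja1 and Agt.

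**Figure D3:**
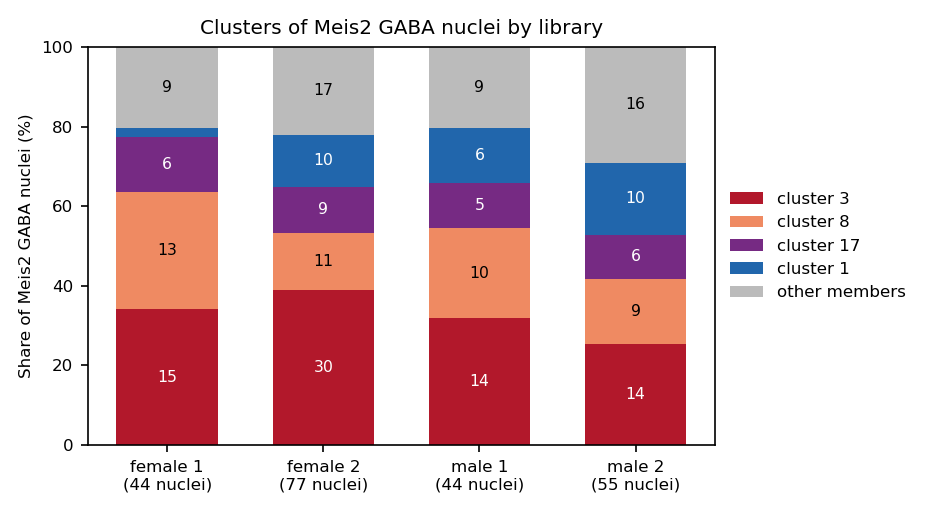
Share of Meis2 GABA nuclei (percent, stacked bars) in clusters 3, 8, 17 and 1 and in all other clusters, for each library with its number of members. Cluster 3 held 15, 30, 14 and 14 members, cluster 8 held 13, 11, 10 and 9, cluster 17 held 6, 9, 5 and 6, and cluster 1 held 1, 10, 6 and 10.

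Cluster 3, with a median of 5620 UMIs per nucleus, had Nox4, Trhr, Egfr and Pdyn among its leading genes. Nox4 was at 1197 CPM in it, against 475 CPM in cluster 8 and 284 CPM in cluster 17, and Foxp2 at 1059, 88.7 and 173 CPM in the same order. It held 22 of the 25 members with Pdyn RNA (70.9 CPM, 0 in cluster 8). Meis1 was at 1025 CPM in cluster 3 and 697 CPM in cluster 17 but 31.7 CPM in cluster 8.

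Cluster 8 (median 6317 UMIs) carried most of the enkephalin and tachykinin RNA of the members. Penk was at 1895 CPM in it, against 6.45 CPM in cluster 3 and 0 in cluster 17, and in each library cluster 8 alone reached 1130 to 2418 CPM. Tac1 was at 1267 CPM and Ebf2 at 1831 CPM, against 23.6 and 32.2 CPM in cluster 3. Runx2 was highest there, at 1350 CPM against 316 and 357 CPM in clusters 3 and 17. The higher Penk and Tac1 of the members as a whole in female 1 and male 1 went with the larger share of cluster 8 in those libraries, 13 of 44 and 10 of 44 members, against 11 of 77 in female 2 and 9 of 55 in male 2; its part in those levels was not tested.

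Cluster 17 (median 6952 UMIs) had Kit, the stem cell factor receptor, at 830 CPM against 23.6 and 19.0 CPM in clusters 3 and 8, and Chrm5 at 485 CPM against 174 and 19.0 CPM. Oprm1 was shared by the 3 clusters, at 726, 691 and 429 CPM, as were Egfr (1195, 925 and 1064 CPM), Chrna5 (385, 605 and 279 CPM) and Cux2 (769, 624 and 819 CPM). Gad2 was low in all 3, at 204, 69.7 and 156 CPM.

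In the 27 members of cluster 1, Egfr had 0 UMIs, Chrna5 was at 4.94 CPM and Oprm1 at 79.1 CPM, while Gad2 was at 717, Cacna2d3 at 845 and Htr2c at 1196 CPM. Female 1 had 1 member in this cluster and the other libraries had 6 to 10, and Cacna2d3 among all members was lowest in female 1; the part of cluster 1 in that difference was not tested.

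**Figure D4:**
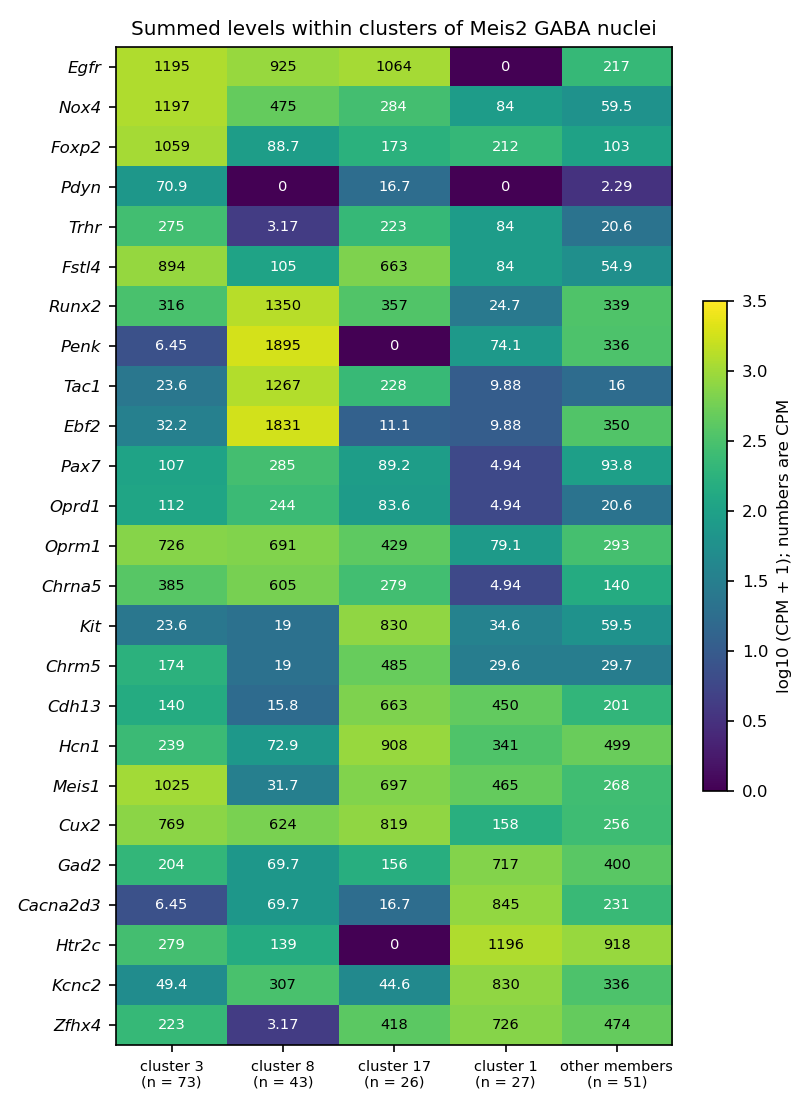
Level of 25 genes in Meis2 GABA nuclei by cluster, in CPM summed over all members of the cluster (numbers) with colour on a log10 (CPM + 1) scale; columns give the number of members. Penk, Tac1 and Ebf2 are concentrated in cluster 8, Nox4, Foxp2 and Pdyn in cluster 3, and Kit in cluster 17. Chrm5 is highest in cluster 17 and also present in the larger cluster 3. Cluster 1 has 0 UMIs of Egfr and the highest Gad2, Cacna2d3 and Htr2c.

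Pairs of genes were also counted within nuclei. Of the 58 members with a Penk UMI, 51 also had Runx2 (87.9%, against 42.6% of members without Penk) and 0 had Pdyn, which 25 members carried. The median depth of members with and without Penk was 6552.5 and 6690 UMIs. Oprm1 was seen in 168 members and Chrna5 in 143, and 135 had both, that is 80.4% of members with Oprm1 and 15.4% of those without. Of the 86 members with Oprd1, 81 also had Oprm1. These are counts of nuclei that share libraries and clusters and carry no test.

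The members' share of nuclei was compared between the sexes and did not pass a test. They were 1.26%, 1.93%, 1.42% and 1.17% of nuclei with at least 2000 UMIs, on average 1.60% ± 0.472 in females and 1.29% ± 0.177 in males (SD, n = 2; two-sided exact permutation p = 0.667, where 0.333 is the lowest that 2 libraries against 2 can give). The exact binomial 95% intervals were 0.919 to 1.69%, 1.53 to 2.41%, 1.03 to 1.90% and 0.880 to 1.52%, and cover counting error only. As a share of GABA nuclei they were 15.8%, 24.1%, 15.1% and 20%, and 28.6%, 27.1%, 25.7% and 25.9% when nuclei were thinned to 2000 UMIs before gating.

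Female and male members differed in 7 of 6720 genes tested, or 0.104% (edgeR; 2 genes or 0.0298% higher and 5 or 0.0744% lower in females), with 497 genes at an unadjusted p under 0.05. Of the 5, Kdm5d (0, 3.31, 148 and 105 CPM) and Eif2s3y (0, 0, 87.8 and 92.4 CPM) are Y-linked genes. Ddx3 (0, 0, 85.1 and 105 CPM) and the clone-named AC241873.1 had the same pattern. The 2 higher in females, AABR07039356.2 and LOC680227, have no gene name beyond a clone or locus number. The 9 oligodendrocyte markers together were higher in both male libraries of members, as given above; the part of oligodendrocyte RNA in the differences between sexes was not tested. All 7 calls were lost without male 1 (0 calls, 259 genes at an unadjusted p under 0.05), and leaving out female 1, female 2 or male 2 gave 35, 36 and 24 calls. None of the peptide, receptor or transcription factor genes above passed the test.

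The difference between sexes did not pass for any of 9729 genes as an interaction with population (edgeR, 0.0% called; 481 at an unadjusted p under 0.05). Cacna2d3 had an interaction of -1.88 ± 0.34 in edgeR (adjusted p = 0.147) and passed in DESeq2 (-2.03 ± 0.43, adjusted p = 0.0250), where 86 genes had an unadjusted p under 0.05.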

How the data were processed

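Nuclei of 4 libraries were measured by single-nucleus RNA sequencing. The authors deposited a matrix of raw UMI counts for each library, with no normalization, per the file headers, which name software version 3.0.2. Cell Ranger and the genome build rn6 are named in the submitters' processing notes. The annotation and the use of strand were not given in the sources used here, which limits overlapping genes. No barcode held fewer than 501 UMIs.

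Raw counts were gated and summed per library and population (12 sums of 32883 features), then compared in edgeR 4.0.16 (R 4.3.3) by its quasi-likelihood F test after TMM scaling and filterByExpr, with library as a block between populations and no block between sexes. SE is the absolute log2 difference divided by the root of the F statistic. Adjusted p is Benjamini-Hochberg over all genes tested. The fits were tested on simulated counts with a dispersion of 0.02 and 200 changed genes of at least 100 UMIs. Of changes of 1 on the log2 scale 54% to 63% were called, and 4.40% to 5.39% of calls were false. The simulation held no differences between libraries, so it does not cover genes with fewer UMIs or calls that rest on 1 library.

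Clusters came from scanpy 1.11.5 and leidenalg 0.10.2 (2000 variable genes, 30 components, 20 neighbours, resolution 1). Scrublet doublet calls (0.8% per 1000 barcodes) were kept in the main sums and removed in an alternative. Other alternatives were depth, Meis2 minimum, glial RNA, filter, scaling, DESeq2 1.42.0 and each library left out.

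Members and gene lists were chosen with earlier results of these data known. Named genes are, per comparison of populations, the 15 largest increases and 10 largest decreases among calls with at least 20 CPM in the higher population and 1 direction in 4 of 4 libraries, up to 6 calls per direction from each list, and family members needed to account for a list. Of 519 listed genes 18 were not found. Some genes that the rule names are not reported here.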

Additional observations from a re-analysis of the deposited data

Results flagged for a closer look

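Among 94 named genes with at least 50 UMIs in members, 6 had a member library set apart from the other 3 by more than Dixon's 95% limit for 4 values, which chance alone exceeds in about 1 of 20 genes. Runx2 was highest in female 1 at 822 CPM (others 373 to 445), as was Sema3e at 747 CPM. Fstl4 was highest in female 2 at 487 CPM, and Rbfox1 was lowest there, at 498 CPM. In male 2, Cdh18 was highest at 489.7 CPM and Nr2f1 lowest at 27.7 CPM. Without the library concerned, these 6 genes kept the calls for which they were named.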

How the results depend on the processing

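The number of genes called against the Gata3 nuclei (1220) fell to 144 with nuclei thinned to 2000 UMIs, of which 119 were higher (82.6%, against 60.7% of 1220), and that against the double-negative nuclei (967) fell to 191; fewer nuclei and fewer genes (2055) entered these tests. Leaving out each library gave 855 to 1128 and 701 to 877 calls. Without library as a replicate block there were 880 and 656, and with DESeq2 833 and 665. Without a filter on low counts, the median against the double-negative nuclei was -0.11 and 54.4% of its calls were higher, against 62.9%. Outside thinning, 78 of 96 named calls against the Gata3 nuclei and 76 of 103 against the double-negative nuclei were lost under no alternative that tested them. Between the sexes this held for 0 of 6. Some alternatives did not test every named gene, and a gene not tested was not counted as lost.

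With thinning, differences that changed sign were 0.038 for Pnoc against the Gata3 nuclei, and 0.66 for Glra3, -0.33 for Scg2, 0.011 for Grm8 and 0.13 for Grid1 against the double-negative nuclei; the cause was not tested. The 7 calls between the sexes became 14 with at least 2 UMIs of Meis2, 0 with thinning, 30 without a filter, 14 with the replicate number as a block, and 0 to 36 with a library left out. The replicate numbers come from the library titles. Deviations of same-numbered libraries from the mean of their sex correlated at 0.16 over 4441 genes. With 2 libraries per sex both pairs give the same value by construction, so this cannot show whether the numbers mark a pairing. The interaction gave 1 call with DESeq2. The female minus male share of nuclei (0.305 percentage points) was -0.0969 with thinning. At clustering resolution 0.5 the largest cluster held 44.1% of members, against 33.2%. Depth limited genes under about 20 CPM to a few UMIs per library.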

Other observations

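Cnksr3 (87.2 CPM on average in members), the next protein-coding gene beyond Oprm1 and Ipcef1 in the RefSeq annotation of GRCr8, was higher in members by 4.73 ± 0.38 on the log2 scale against the Gata3 nuclei (edgeR, adjusted p = 7.10e-10) and by 4.61 ± 0.32 against the double-negative nuclei (adjusted p = 8.32e-11), in 4 of 4 libraries each. So the 3 neighbouring genes Oprm1, Ipcef1 and Cnksr3 were all higher; the neighbours were looked up after their values were seen.

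A further 16 members lay in a cluster of 63 nuclei beside 46 Gata3 nuclei, with Gli3, Pparg and Pvalb among its leading genes. Meis2 was at 1289 CPM and Gata3 at 166 CPM over that cluster, so both genes of the rule were present in it. Another 12 members lay with 35 double-negative nuclei in a cluster led by Rxfp1, Slc7a11, Grik1 and Sox6.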
